A study of Mus musculus with 1187 samples.

Results

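Smart-seq2 counts of mouse brain endothelial cells lay on 4 plates, numbered 521, 522, 523 and 524 in the column names. Plates 521 and 522 (300 and 290 cells) were set against plates 523 and 524 (285 and 312 cells). This put 590 cells on one side and 597 on the other, which is all 1187 cells of the series. The sides were formed from the column names and from no expression value.

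The study sorted endothelial cells from brains of adult C57BL/6 mice, 3 months old by the series description. One set of mice was Pdgfb ret/+ and the other Pdgfb ret/ret, and both had been crossed to carry the Cldn5-GFP and Cspg4-DsRed reporters. Cells with green and without red fluorescence were taken. The sort therefore selects on the activity of an endothelial tight junction gene and against that of a pericyte and oligodendrocyte precursor gene, in both genotypes. The labels hold 590 Pdgfb ret/+ and 597 Pdgfb ret/ret cells, but they give no cell a plate or well, and no label names an animal. Equal numbers do not show which cells lie on which plate, so the sides are described as plate pairs. Plate, genotype and animal cannot be told apart in what follows, and no p-value is given.

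PDGF-B is secreted by endothelium and held near it by a retention motif, where it recruits pericytes through PDGFRB. The ret allele lacks this motif. Pericytes line brain capillaries and are known to support the blood-brain barrier, the set of tight junctions, transporters and restrained vesicle traffic that separates blood from brain. Endothelial cells also differ along the vessel: capillary cells are rich in nutrient transporters, venous cells in adhesion molecules for leukocytes, and sprouting tip cells in a programme that includes Angpt2 and Apln. The genes described here were grouped by these roles.

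Promoter sequences are shown for 4 genes of groups that differed between the plate pairs, so that the letters shared within a group can be seen. Each is the 250 bases before the RefSeq start, written 5' to 3' on the gene's strand in GRCm38.p6. Capitals in the first 3 mark a kB-like string, GGAAATTCC on either strand, a form of the element bound by NF-kB. Capitals in the last mark the E-box CACGTG, the element bound by the clock proteins CLOCK and BMAL1. The sequences are those of Icam1 (chr9:21015690-21015939, plus strand), Cxcl1 (chr5:90890995-90891244, plus strand), Cxcl10 (chr5:92348890-92349139, minus strand) and Ciart (chr3:95882229-95882478, minus strand).
Icam1: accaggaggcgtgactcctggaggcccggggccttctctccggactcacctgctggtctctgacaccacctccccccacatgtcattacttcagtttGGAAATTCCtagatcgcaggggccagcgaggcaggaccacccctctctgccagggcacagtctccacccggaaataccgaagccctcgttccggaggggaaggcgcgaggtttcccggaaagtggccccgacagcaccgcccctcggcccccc
Cxcl1: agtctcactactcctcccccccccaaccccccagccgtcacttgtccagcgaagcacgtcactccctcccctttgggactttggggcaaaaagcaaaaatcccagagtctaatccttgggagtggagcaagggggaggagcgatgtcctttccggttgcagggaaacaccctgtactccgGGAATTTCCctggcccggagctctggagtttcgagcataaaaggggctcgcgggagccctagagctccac
Cxcl10: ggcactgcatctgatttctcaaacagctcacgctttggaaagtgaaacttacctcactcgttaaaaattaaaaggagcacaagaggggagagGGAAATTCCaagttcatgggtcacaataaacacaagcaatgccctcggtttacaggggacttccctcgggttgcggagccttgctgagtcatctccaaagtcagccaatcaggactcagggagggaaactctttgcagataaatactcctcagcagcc
Ciart: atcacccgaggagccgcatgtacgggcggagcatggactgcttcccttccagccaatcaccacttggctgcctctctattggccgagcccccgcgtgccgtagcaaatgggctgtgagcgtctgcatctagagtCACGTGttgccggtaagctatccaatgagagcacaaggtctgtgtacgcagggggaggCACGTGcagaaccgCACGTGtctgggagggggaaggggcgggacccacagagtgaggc
GENCODE M21 puts the start of Icam1 at 21015985, downstream of the window shown.

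The kB-like string was in 5 of the 10 genes of the leukocyte adhesion and chemokine list that had a promoter in the table, against 0.344% of the 27025 genes with a promoter and 0.46% of the 7398 tested genes with one. The 5 genes were Icam1, Cxcl1, Cxcl10, Nfkbia and Tnfaip3. The E-box was in 5 of 13 clock genes (Per1, Cry1, Tef, Ciart and Bhlhe41), against 6.86% of all promoters and 10.3% of those of tested genes, and Ciart held it 3 times. Both strings were chosen after 11 strings had been looked at in promoters of genes that differed, so these shares are descriptions only. The 2 strings do not overlap each other.

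Counts were summed per plate and scaled to CPM, the count a gene would have in a library of 1000000 reads. Of 46517 genes, 9999 averaged at least 10 CPM over the plates. A gene is called not overlapping when both plates of one pair lay above both plates of the other. This held for 2596 genes with higher values on 521 and 522 (26.0%) and for 2237 with higher values on 523 and 524 (22.4%), together 48.3% of the tested genes. Counts of list members given below should be read against these shares. A stricter call asked that the lowest plate of the higher pair, plus 1 CPM, be at least 1.5 times the highest plate of the other, plus 1 CPM. This ratio is called the gap. By that call 395 genes (3.95%) were higher on 521 and 522 and 259 (2.59%) on 523 and 524, and a gap of 2-fold held for 1.74% and 0.78%. Plates within a pair were closer to each other than plates across pairs: 13.6% and 13.3% of genes were 1.5-fold apart within the pairs, against 19.9% to 23.2% across them. The log2 ratio used throughout is that of the pair means, 521 and 522 over 523 and 524, each plus 1 CPM, and its median over the 9999 genes was 0.03.

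The plates held similar numbers of reads, 98732876 to 108978396. Cells on 521 and 522 had more genes with a read. With every cell thinned to 100000 reads, the medians were 4156 and 3902.5 genes on 521 and 522, and 3278 and 3463.5 on 523 and 524. The share of cells with a read was accordingly higher on 521 and 522 for 6862 of the tested genes and higher on 523 and 524 for 592. Shares given below should be read against that split, and the level in cells that had a read is given with them, from the thinned counts. Where the highest 1% of cells of each gene was left out, 3207 genes were higher on 521 and 522 and 1864 on 523 and 524.

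Angiogenic and tip cell genes were higher on plates 521 and 522, led by Apln, Angpt2, Trp53i11 and Adm. Of 11 tested genes of the tip list, 6 were higher on 521 and 522 and 2 on 523 and 524, with a median log2 ratio of 0.87. The gap call held for 5 and 0 of them. Apln encodes the secreted peptide apelin and lies on chromosome X at 48025146-48034853. Its level was 341 CPM on plate 521, 201 on 522, 0.0097 on 523 and 3.78 on 524. Plate 523 held 1 read of it and plate 524 held 412, so the size of the ratio rests on very few reads on one plate. At fixed depth a read was found in 41.0% and 26.9% of cells on 521 and 522. On 524 it was found in 1.28% of cells. On 523 it was found in 0 of 285 cells, a result that a true share of 1.05% or less could give.

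Angpt2, a TIE2 ligand that loosens contact between endothelium and pericytes, was at 508 CPM on 521, 299 on 522, 48.4 on 523 and 29.9 on 524. The pairs were far apart, and the plates of each pair also differed, by 0.76 and 0.67 on the log2 scale. Cells with an Angpt2 read made up 57.0%, 43.5%, 13.3% and 13.8% of the 4 plates in order, and those cells averaged 921, 675, 311 and 224 CPM. Both the share of cells and the level within them were thus higher on 521 and 522. Adm, the vasodilator peptide adrenomedullin, was at 172, 114, 24.3 and 15.7 CPM, with a gap of 4.56. Trp53i11, a gene induced by p53, was at 183, 106, 11.8 and 5.79 CPM. Nid2, a basement membrane protein, was at 130, 116, 64.5 and 69.4 CPM.

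Other tip list genes did not follow. Dll4, the Notch ligand of tip cells, overlapped at 203, 248, 253 and 186 CPM. Flt4, a VEGF receptor, overlapped too, and Cd34 was higher on 523 and 524 with a log2 ratio of -0.35. Pdgfb, the gene altered in the mice, overlapped at 215, 165, 206 and 168 CPM. The ret allele changes the protein's retention motif, so transcript level is no check of genotype. Of 3 tested PDGF ligand genes, 0 separated the pairs in either direction.

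On plates 521 and 522, cells with an Angpt2 read carried Apln, Adm and Trp53i11 more often than cells without one. This was not limited to tip genes: Mfsd2a, of the capillary list, was read in 39.8% against 28.7% on 521 and 64.3% against 50.0% on 522. On plate 521, Apln was read in 57.9% of 171 cells with Angpt2 (95% exact Clopper-Pearson interval 50.1% to 65.4%) and in 18.6% of 129 without (12.3% to 26.4%). On plate 522 the shares were 39.7% of 126 and 17.1% of 164. On plates 523 and 524, by contrast, Apln was read in 0 of the 38 and 0 of the 43 cells that had Angpt2; 3 counts would be 7.89% and 6.98%. Fgfbp1 gave a like picture, with 77.2% and 56.3% of cells with Angpt2 on 521 and 522 against 7.89% and 0 of 43 on 523 and 524. Adm was read on 523 in 23.7% of cells with Angpt2 and 8.5% of those without, and on 524 in 6.98% and 5.95%. A read of at least 3 of the 16 tip genes was present in 92.0%, 84.5%, 73.3% and 73.1% of cells on the 4 plates in order. At least 5 were present in 62.3% and 45.9% of cells on 521 and 522 and in 17.9% and 17.6% on 523 and 524. The intervals treat cells of a plate as independent and cover counting error only, leaving out differences between plates or animals. For Apln in cells with Angpt2, that of plate 522 (31.1% to 48.8%) did not overlap that of plate 521.

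**Figure D1:**
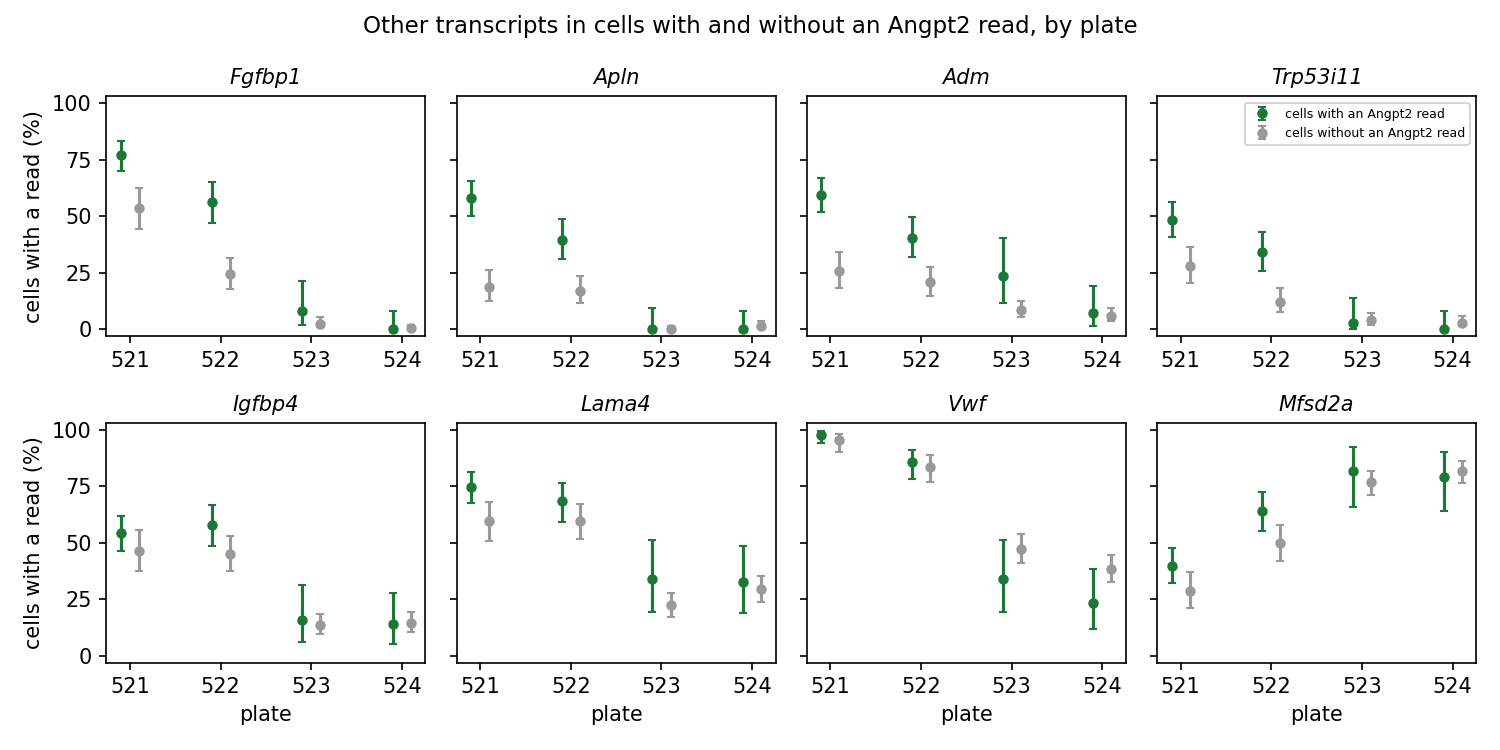
Percentage of cells with a read of 8 genes at fixed depth, by plate, in cells with an Angpt2 read (green) and without one (grey), with exact 95% binomial intervals. Apln was read in 57.9% and 39.7% of the Angpt2 cells on plates 521 and 522 and in none of the 38 and 43 on 523 and 524, while Mfsd2a was lowest on 521 in both kinds of cell.

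The 15 genes with the largest gap on the side of 521 and 522 included several secreted proteins. In order of gap they were Apln, Cyp4b1, Frzb, Bmp6, Fgfbp1, Slc22a14, Cd74, Igfbp4, Cdh26, Smoc2, Bgn, Osbpl5, Trp53i11, Gpx3 and Adh1. Fgfbp1, a secreted carrier of fibroblast growth factors on chromosome 5 at 43978858-43981779, was at 699, 288, 10.6 and 0.459 CPM. Igfbp4, which binds insulin-like growth factors, was at 186, 205, 13.0 and 13.5 CPM. Its plates agreed closely within each pair, and the mean of 521 and 522 was 13.8-fold that of 523 and 524 with 1 CPM added to both. A read was found in 51.0% and 50.7% of cells on 521 and 522 and in 14.0% and 14.4% on 523 and 524, and cells with a read averaged 367, 404, 84.8 and 84.9 CPM.

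Bgn, the small proteoglycan biglycan, was at 521, 194, 20.1 and 3.39 CPM. Adh1, an alcohol dehydrogenase, was at 470, 306, 38.9 and 32.8 CPM. Cdh26, a cadherin, was at 133, 53.8, 1.05 and 3.45 CPM. In all 3 the pairs were well apart, while Bgn varied widely within both pairs. Cyp4b1, a cytochrome P450, was at 62.5 and 36.8 CPM on 521 and 522, against 4 and 2 reads in all on 523 and 524. Frzb, a secreted Wnt antagonist, was at 77.9 and 34.5 CPM, against 2 reads and 1 read. Slc22a14 was at 65.5 and 16.2 CPM, with 0 reads on plate 523, which allows a share of up to 1.05% of cells, and 24 on 524. Folds are not given for these 3 because the lower side is at or near the floor. The annotated span of Slc22a14 also covers other genes, among them Slc22a13 and Myd88, whose reads may have been counted with it.

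**Figure D2:**
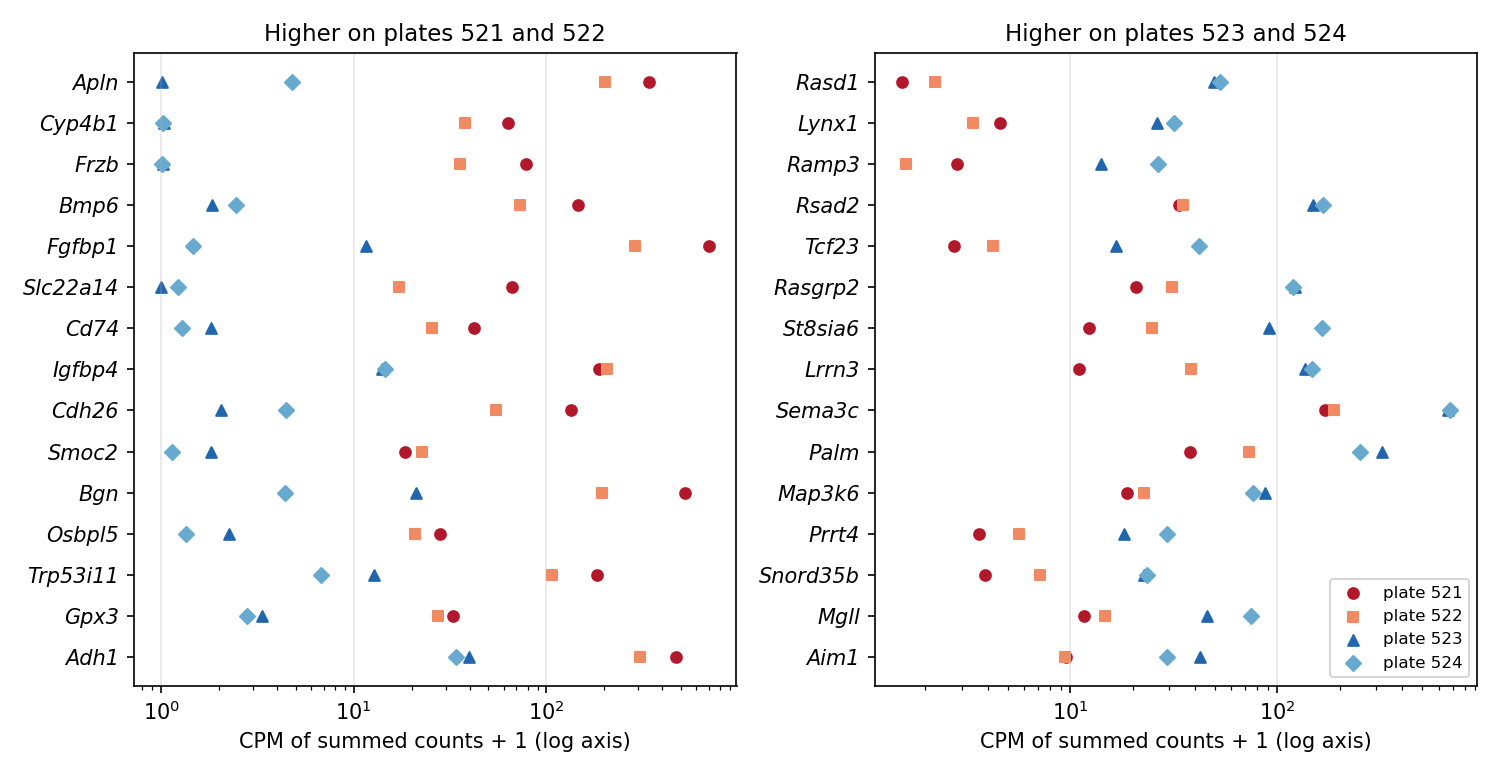
CPM of summed counts plus 1, on a log axis, of the 15 genes named for each direction, in order of gap and with 3 predicted genes skipped on the side of 523 and 524, with 1 point per plate. Apln, at the top left, was at 341 and 201 CPM on plates 521 and 522 and below 4 CPM on 523 and 524; Rasd1, at the top right, was below 2 CPM on 521 and 522 and at 48.4 and 51.9 CPM on the others.

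Genes of the BMP and TGF-beta pathway differed member by member rather than as a group. Of 21 tested, 8 were higher on 521 and 522 and 4 on 523 and 524, with a median log2 ratio of 0.09. Among ligands, Bmp6 (chromosome 13, 38345107-38500302) was at 145, 72.0, 0.836 and 1.46 CPM. Bmp4 was at 152, 57.1, 11.3 and 0.413 CPM and so also varied widely within each pair. Tgfb2 overlapped. The coreceptor endoglin (Eng), which presents BMP9 to ALK1 on endothelium, was at 2350, 2364, 1471 and 1363 CPM. Its plates differed little within a pair. Tgfbr3, the betaglycan coreceptor, was at 366, 282, 152 and 179 CPM, whereas the receptors Tgfbr1, Tgfbr2, Acvrl1 and Bmpr2 overlapped. Smad1, Smad2 and Smad3, which carry the signal, were higher on 521 and 522, with log2 ratios of 0.66, 0.89 and 0.61. Smad4, their common partner, was higher on 523 and 524 at -0.66. Id1, a target of BMP signals, was higher on 523 and 524 at 569 and 494 CPM against 381 and 392. Ltbp4, which binds latent TGF-beta, was at 239, 327, 703 and 732 CPM.

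Receptors of VEGF and the TIE system were divided in the same way. Flt1, a VEGF receptor that also acts as a decoy, was at 2394, 2933, 4194 and 4285 CPM. Tek, the receptor of the angiopoietins, was at 924, 1019, 1377 and 1313 CPM. Both were higher on 523 and 524, and Kdr, the main signalling receptor for VEGF-A, overlapped. Nrp2, a coreceptor for VEGF-C found in veins, was at 208, 171, 48.4 and 45.6 CPM. It was read in 58.3% and 51.7% of cells on 521 and 522 and in 16.8% and 19.6% on 523 and 524. Of 10 tested genes, 4 were higher on 521 and 522 and 2 on 523 and 524, and the median log2 ratio was 0.19.

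Venous genes were higher on 521 and 522 in 11 of 12 tested members, and 1, Ephb4, was higher on 523 and 524. The gap call held for 6 and 0 of them, and the median log2 ratio was 1.14. Within cell ranges formed by loose limits on arterial and venous markers, described at the end, the list was less one-sided. There 3 to 6 members were higher on 521 and 522, with medians from -0.11 to 0.34. Venous markers helped to form these ranges, so these values are not independent of the split. Vwf, the von Willebrand clotting factor (chromosome 6, 125546774-125686679), was at 1582, 1094, 401 and 259 CPM. It was read in 96.7%, 84.5%, 45.6% and 36.2% of cells, and cells with a read averaged 1664, 1319, 956 and 727 CPM. Lcn2, the secreted lipocalin 2, was at 27.8, 43.6, 4.20 and 2.14 CPM. Slc38a5, a glutamine transporter, was at 470, 515, 281 and 360 CPM. Nr2f2, the transcription factor that specifies veins, differed little beyond its spread within 521 and 522, at 26.9, 16.3, 13.9 and 13.3 CPM. Ackr1, a chemokine receptor of venules, lay below the 10 CPM filter at 7.60 and 7.57 CPM on 521 and 522. It had 0 reads on 523, which allows a share of up to 1.05% of cells, and was at 0.211 CPM on 524.

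The leukocyte adhesion and chemokine list shares Vcam1, Icam1, Il1r1, Lcn2 and others with the venous list, so the counts are not separate. Of its 12 tested members, 9 were higher on 521 and 522 and 1 on 523 and 524, with a median log2 ratio of 0.97. The 1 was the chemokine Cxcl12, also on the capillary list and the most abundant member, at a mean of 1486 CPM. Summed over all members, the list was at 2974, 3315, 2985 and 2960 CPM, so the sums overlapped between the pairs. Within the same cell ranges, which the shared members helped to form, the median was between -0.14 and 0.89. Vcam1, which binds integrins of leukocytes, was at 397, 252, 69.4 and 69.4 CPM. Icam1, with a like role, was at 175, 143, 71.0 and 52.0 CPM. The chemokine Cxcl1 was at 59.8, 67.3, 19.3 and 22.5 CPM, and Cxcl10 at 12.4, 24.5, 0.894 and 2.62 CPM. None of these 4 overlapped, and 3 of them carry the kB-like string shown above. That string too was chosen after promoters of genes that differed had been looked at, so this is a description only. Vcam1 had no entry in the promoter table. Nfkbia and Tnfaip3, the other members with the string and feedback inhibitors of NF-kB, overlapped, at 518, 542, 566 and 520 CPM and at 35.6, 42.4, 39.7 and 40.9 CPM. Cx3cl1, the membrane-bound chemokine fractalkine, was at 190, 197, 129 and 130 CPM. Ptgs2, the inducible cyclooxygenase, was at 68.2, 39.7, 16.9 and 11.7 CPM. Selp and Sele, the selectins, stayed below 10 CPM on every plate.

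Cells with a Vcam1 read numbered 148 of 300, 99 of 290, 42 of 285 and 45 of 312. Among them, Icam1 was read in 52.7% (44.3% to 61.0%), 48.5% (38.3% to 58.7%), 31.0% (17.6% to 47.1%) and 22.2% (11.2% to 37.1%) on the 4 plates in order. Among cells without Vcam1 the Icam1 shares were 19.1%, 22.5%, 14.8% and 12.4%. The share was higher in cells with Vcam1 on every plate, with intervals that overlapped on 523 (10.6% to 19.9% without Vcam1) and 524 (8.66% to 16.9%). Vwf was read in 94.7% and 81.7% of the cells without Vcam1 on 521 and 522, against 43.2% and 31.1% on 523 and 524. Higher Vwf on 521 and 522 was therefore not limited to cells with Vcam1.

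**Figure D3:**
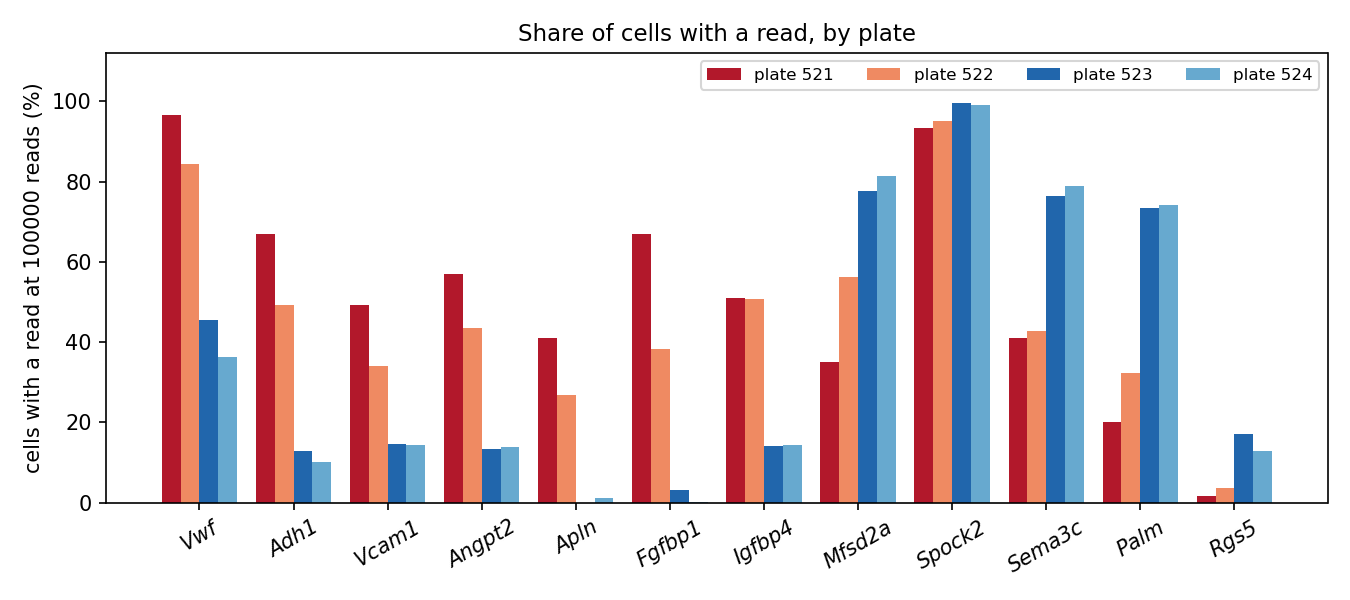
Percentage of cells with a read of 12 genes after thinning each cell to 100000 reads, with 1 bar per plate. Vwf was read in 96.7% and 84.5% of cells on plates 521 and 522 and in 45.6% and 36.2% on 523 and 524, while Palm and Sema3c were found in more cells on 523 and 524.

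Antigen presentation genes were higher on 521 and 522 in 9 of 12 tested members and higher on 523 and 524 in 1, with a median log2 ratio of 0.39. H2-K1, a class I heavy chain, was at 1391, 1321, 695 and 689 CPM, and H2-D1, another, at 1436, 1466, 1158 and 1154 CPM. H2-Q7, a non-classical class I gene, was at 287, 166, 43.3 and 39.2 CPM. Class I genes are near-identical copies in places, and how reads shared between copies were counted is not stated by the labels. Cd74, the invariant chain of class II, was at 41.3, 24.4, 0.807 and 0.284 CPM. It was read in 11.0%, 5.86%, 0.702% and 0.321% of cells. Among the 167 cells without several arterial or venous markers it was at 0, 0.128, 0 and 0 CPM, and the pairs overlapped. The class II genes H2-Aa and H2-Ab1 lay near the filter, at 11.5 and 11.4 CPM and at 16.2 and 18.0 CPM on 521 and 522. On 523 and 524 H2-Aa had 0 reads, which allows shares of up to 1.05% and 0.962% of cells, and H2-Ab1 was at 0.418 CPM and 0 reads. Summed levels of the leukocyte marker list were 2.39, 4.94, 3.26 and 4.18 CPM, with Ptprc, the common leukocyte antigen, at an average of 1.70 CPM over plates. Those sums overlapped between the pairs.

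Interferon genes lay on both sides. Of 21 tested, 7 were higher on 521 and 522 and 10 on 523 and 524, with a median log2 ratio of -0.08. Rsad2, the antiviral enzyme viperin, was at 32.5, 33.9, 147 and 165 CPM, the largest gap of that list, at 4.22 in favour of 523 and 524. Gbp2, an interferon-gamma target, went the other way at 364, 389, 221 and 239 CPM, as did Iigp1 at 217, 225, 108 and 154 CPM.

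Barrier transporters and receptors were lower on 521 and 522. Of 27 tested, 21 were higher on 523 and 524, 1 was higher on 521 and 522 (Slc38a5, also on the venous list) and 5 overlapped. The gap call held for 8 and 0 of them, and the median log2 ratio was -0.50. Slc39a10, a zinc importer on chromosome 1 at 46807544-46892852, was at 497, 602, 1390 and 1592 CPM. Lrp8, a receptor for apolipoprotein E and reelin, was at 74.7, 73.3, 218 and 187 CPM. Slc30a1, a zinc exporter, was at 130, 137, 253 and 264 CPM. Plates within a pair were close in all 3. Slc19a3, the thiamine carrier, was at 192, 230, 399 and 381 CPM. Tfrc, the transferrin receptor, was at 651, 697, 1254 and 1098 CPM. Slc6a6, the taurine transporter, was at 1165, 1771, 2393 and 2722 CPM.

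Mfsd2a, which carries lysophosphatidylcholine with docosahexaenoic acid and restrains transcytosis, was at 198, 533, 853 and 851 CPM. Plates 521 and 522 differed by 1.43 on the log2 scale, more than the gap of 1.60-fold to plates 523 and 524, so plate 521 stands apart for this gene. It was read in 35.0% and 56.2% of cells on 521 and 522 and in 77.5% and 81.4% on 523 and 524. Cells with a read averaged 550, 939, 1083 and 1033 CPM.

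Slc2a1, Slco1a4, Slco2b1 and Abcg2 were among the members that overlapped. Slc2a1, the glucose transporter of the barrier, was at 3135, 3623, 3433 and 3551 CPM. Slco1a4, an organic anion transporter, was at 3785, 3585, 3373 and 3674 CPM. Abcg2, an efflux pump, was at 1181, 1250, 1097 and 1218 CPM. Abcb1a, the P-glycoprotein pump, was slightly higher on 523 and 524 at 917, 1035, 1076 and 1230 CPM, with a gap of 1.04. Counts of the most abundant short genes may be held down: Cldn5, with 1416 exonic bases, had a median of 1446 counts per cell, and 7 of 9067 coding genes exceeded 1 count per exonic base in any cell. Whether reads starting at the same position were collapsed is not stated by the labels, and its part in the overlap was not tested.

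**Figure D4:**
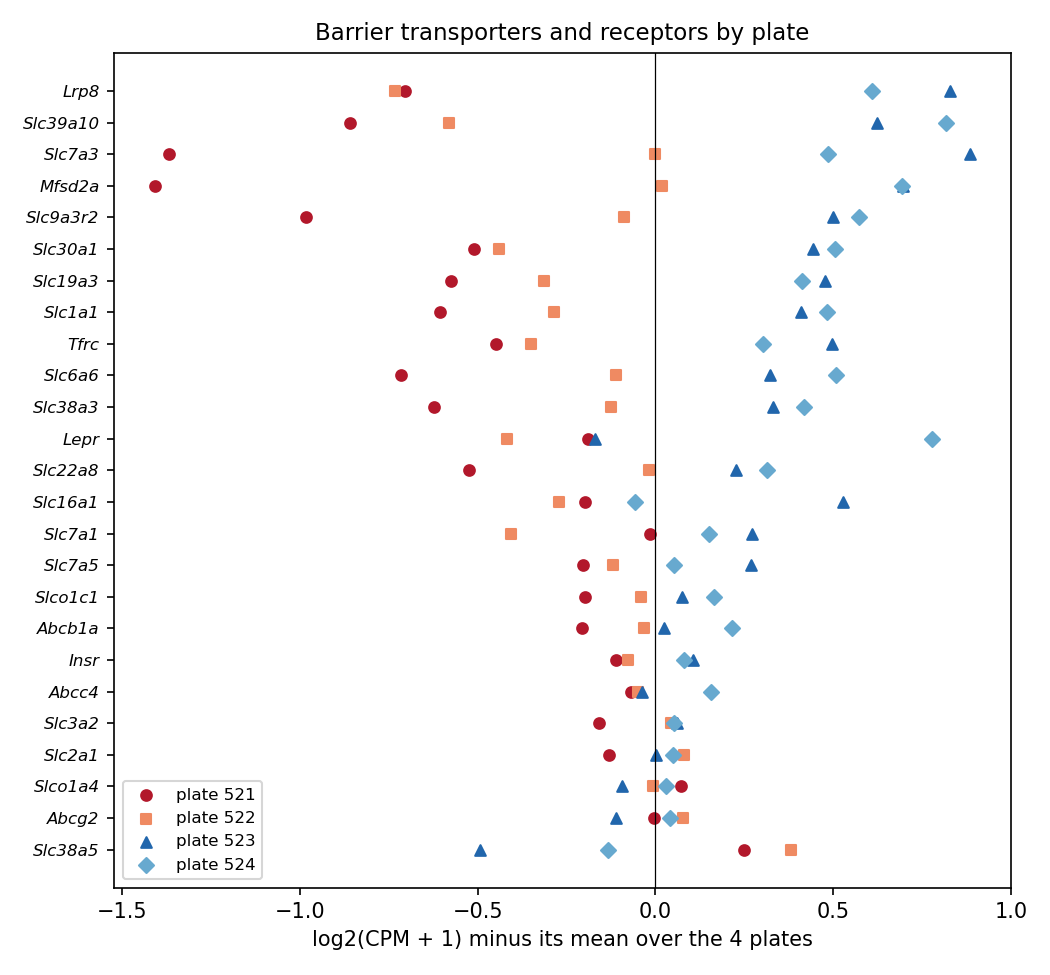
Level on each plate of the barrier transporters and receptors that separated the pairs, and of Slc2a1, Slco1a4 and Abcg2, as log2(CPM + 1) minus the gene's mean over the 4 plates. Blue points (523 and 524) lie to the right of red and orange points (521 and 522) for 21 genes, Slc38a5 is reversed, and Slc2a1, Slco1a4 and Abcg2 are mixed.

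Capillary markers overlap in part with the transporters. Of 10 tested, 9 were higher on 523 and 524 and 1, Ivns1abp, overlapped, with a median log2 ratio of -0.46. Spock2, a secreted proteoglycan, was at 786, 1039, 1799 and 1711 CPM. Rgcc, a regulator of the cell cycle, was at 43.6, 88.8, 181 and 164 CPM. As shares of cells with a read at fixed depth, the list medians were -0.07 for capillary genes and -0.08 for transporters. By that measure the median over all 9999 tested genes was 0.30, against 0.03 by CPM, so both lists still lay below all genes. Spock2 was read in 93.3%, 95.2%, 99.6% and 99.0% of cells, and the levels in those cells were 846, 1096, 1809 and 1710 CPM.

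Arterial genes gave no common direction: of 18 tested, 5 were higher on 521 and 522 and 6 on 523 and 524, with a median log2 ratio of -0.06. In cells that passed only for arterial markers (41, 73, 144 and 164 by plate), 13 were higher on 521 and 522 and 2 on 523 and 524, with a median of 1.16. These cells were chosen by the arterial markers themselves and by few venous markers, so these values are not independent of the split. Edn1, the vasoconstrictor endothelin 1, was at 979, 589, 228 and 122 CPM, with a gap of 2.57. Hey1, a Notch target, was at 67.9, 58.1, 145 and 112 CPM. Unc5b, a netrin receptor, was at 39.8, 47.7, 77.5 and 99.0 CPM. Alpl, tissue-nonspecific alkaline phosphatase, was at 94.3, 154, 215 and 243 CPM. Genes of shear stress and nitric oxide, a list that also holds Edn1, were higher on 521 and 522 in 2 of 9 tested and on 523 and 524 in 5, with a median of -0.28. Klf4, a flow-induced transcription factor, was at 180, 169, 290 and 306 CPM. Thbd, the anticoagulant thrombomodulin, was at 110, 161, 329 and 348 CPM. Klf2 was higher on 523 and 524 with a gap of 1.10, and Nos3, endothelial nitric oxide synthase, barely separated at 284, 363, 425 and 363 CPM.

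Clotting genes lay on both sides: all 8 tested members of the coagulation list separated the pairs, 4 in each direction, with a median log2 ratio of 0.05. Vwf, the protein C receptor Procr and the inhibitor Tfpi were higher on 521 and 522. Thbd and Plat, tissue plasminogen activator, were higher on 523 and 524, Plat at 144, 140, 341 and 337 CPM. Plates within a pair differed by at most 0.04 on the log2 scale for Plat.

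Junction genes were mixed, 8 of 16 tested being higher on 521 and 522 and 5 on 523 and 524, with a median log2 ratio of 0.13. Cldn5, the main claudin of the barrier and the source of the sorting reporter, was at 4178, 4254, 3972 and 3766 CPM, a gap of 1.05. Pecam1 and Tjp1 overlapped, and Ocln separated by a gap of 1.01. Jam2, a junctional adhesion molecule, was the member with the widest gap, at 318, 418, 795 and 832 CPM. Jam3 was at 26.1, 28.1, 13.1 and 13.8 CPM, on the other side. Lsr, the angulin of tricellular junctions, was higher on 523 and 524 with a gap of 1.21. Gja4, the gap junction protein connexin 37, was at 65.3, 53.5, 30.3 and 26.0 CPM.

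Caveola genes, 9 tested, were 3 higher on each side and 3 overlapping, with a median log2 ratio of 0.08. Cav1, the coat protein of caveolae, was at 631, 718, 299 and 429 CPM, with a gap of 1.47. Cav2 was slightly higher on 523 and 524, and Ptrf, the cavin needed for caveolae, overlapped.

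Basement membrane genes lay on both sides, with 7 of 13 tested higher on 521 and 522, 5 on 523 and 524, and a median log2 ratio of 0.31. Lama4, the laminin chain of most endothelium, was at 243, 256, 82.0 and 87.5 CPM, whereas Lama5, the chain that marks sites leukocytes seldom cross, was at 82.5, 138, 201 and 178 CPM. Lama4 was read in 68.3% and 63.5% of cells on 521 and 522 and in 23.9% and 29.8% on 523 and 524, while cells with a read averaged 369, 405, 337 and 292 CPM. Col4a1 and Col4a2, the collagen chains, differed by gaps of 1.09 and 1.01 in opposite directions. Sparc, a matrix glycoprotein, was at 2216, 2265, 1719 and 1581 CPM. Agrn, the proteoglycan agrin, was at 361, 347, 471 and 473 CPM.

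Among pathway genes of vessel patterning, Wnt/beta-catenin members were 8 higher on 521 and 522 and 9 on 523 and 524 of 23 tested, and Notch members 2 and 4 of 11; both medians were -0.10. Apcdd1, an inhibitor and target of Wnt signals, was at 522, 462, 287 and 272 CPM. Notum, another secreted inhibitor and target, was at 47.5, 73.8, 108 and 119 CPM, on the other side. Notch4 was higher on 523 and 524 at 164 and 172 CPM against 87.9 and 123.

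Clock genes were higher on 521 and 522 in 9 of 15 tested members and higher on 523 and 524 in 1, with a median log2 ratio of 0.43 and gap calls for 4 and 0. Per2, a repressor of the clock, was at 39.4, 43.1, 5.77 and 13.5 CPM. Ciart, another repressor, whose promoter with 3 E-boxes is shown above, was at 109, 154, 56.2 and 62.8 CPM. Dbp, an output transcription factor, was at 268, 325, 219 and 194 CPM, and Hlf, its relative, at 92.3, 101, 45.7 and 62.5 CPM. Nr1d1, which encodes REV-ERB-alpha, was higher on 523 and 524 at 456 and 397 CPM against 260 and 375, and Clock, Cry1, Nr1d2, Bhlhe40 and Rora overlapped. Of the 5 members with an E-box, 4 were higher on 521 and 522 (Per1, Tef, Ciart and Bhlhe41) and Cry1 overlapped, beside 9 of all 15 tested members. The string was chosen after promoters of genes that differed had been looked at, so this count links no string to a direction.

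Stress and hormone genes lay on both sides. Of 21 immediate early genes, 5 were higher on 521 and 522 and 9 on 523 and 524, beside 26.0% and 22.4% of all tested genes. Their median log2 ratio was -0.16, near the spread of 0.14 of plate medians within a pair. Ctgf, a matricellular protein and target of YAP, was at 783, 428, 93.3 and 35.6 CPM, and Socs3, a feedback inhibitor of cytokine receptors, at 100, 103, 49.4 and 21.2 CPM. Ier2 and Dusp1, which respond to growth factors and stress, were higher on 523 and 524, Ier2 at 157, 204, 325 and 278 CPM. The glucocorticoid targets Tsc22d3 and Zbtb16 were higher on 523 and 524, Tsc22d3 at 351, 394, 804 and 665 CPM, while Sgk1, another target, was higher on 521 and 522 at 515, 491, 341 and 370 CPM. Of 13 tested members of the glucocorticoid list, 3 were higher on 521 and 522 and 6 on 523 and 524, with a median of -0.21.

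Glycolytic genes were mostly higher on 521 and 522 by small amounts: in the hypoxia and glycolysis list 13 of 23 tested were higher there and 4 on 523 and 524, with a median log2 ratio of 0.23. Pfkfb3, which drives glycolytic flux in sprouting endothelium, was at 103, 113, 49.7 and 49.3 CPM. Pfkp, a phosphofructokinase, was at 61.0, 62.9, 26.2 and 33.4 CPM. Hif1a overlapped and Epas1 was higher on 523 and 524 with a gap of 1.02. Cytosolic ribosome genes were higher on 521 and 522 in 24 of 27, with a median log2 ratio of 0.18 and gap calls for 0 of them, and oxidative phosphorylation genes in 7 of 24, with 4 the other way. Heat shock genes were 2 and 5 of 17, sterol and lipid genes 4 and 5 of 16, MAP kinase feedback genes 1 and 2 of 7, and mitochondrial transcripts 1 and 1 of 9, with medians from -0.08 to 0.04.

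**Figure D5:**
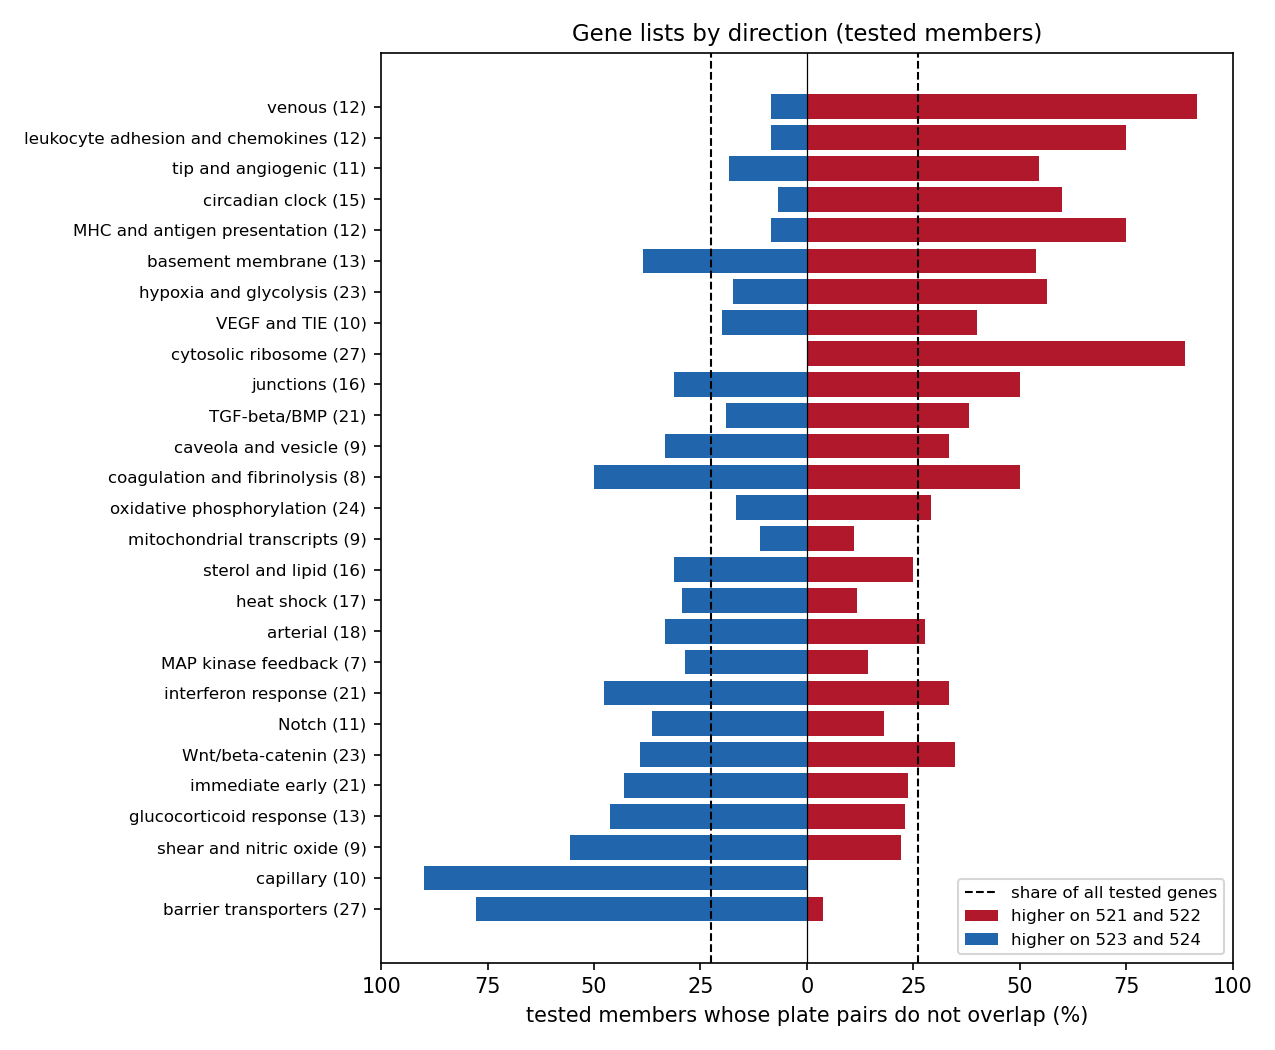
Share of tested members of 27 gene lists (number tested in brackets) whose plate pairs did not overlap, to the right when higher on 521 and 522 and to the left when higher on 523 and 524. Dashed lines mark the shares of all 9999 genes, 26.0% and 22.4%; venous genes (11 of 12) and barrier transporters (21 of 27) lie far outside them in opposite directions.

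Toward 523 and 524, the 15 genes with the largest gap after 3 predicted genes had been skipped were Rasd1, Lynx1, Ramp3, Rsad2, Tcf23, Rasgrp2, St8sia6, Lrrn3, Sema3c, Palm, Map3k6, Prrt4, Snord35b, Mgll and Aim1. Rasd1, a Ras-like protein induced by dexamethasone, lies on chromosome 11 at 59963181-59964944. It was at 0.545, 1.24, 48.4 and 51.9 CPM. It was read in 2.67%, 3.79%, 16.8% and 21.5% of cells, and cells with a read averaged 22.5, 23.6, 310 and 226 CPM. Its gap was 22.1, and that of Lynx1 was 5.70.

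Sema3c, a secreted guidance protein (chromosome 5, 17574281-17730268), was at 170, 187, 664 and 680 CPM. Palm, the membrane-shape protein paralemmin, was at 37.0, 72.1, 318 and 249 CPM. Rasgrp2, an activator of the GTPase RAP1, was at 19.7, 30.1, 121 and 118 CPM. For these 3 the pairs lay 3-fold or more apart with spreads within a pair below that. They were read in more cells on 523 and 524, which the rule for naming genes required, so this is no separate result. Sema3c was read in 41.0%, 42.8%, 76.5% and 78.8% of cells, and Palm in 20.0%, 32.4%, 73.3% and 74.0%. Ramp3, a partner of the receptor for adrenomedullin, was at 1.86, 0.618, 13.1 and 25.6 CPM, opposite to its ligand Adm. St8sia6, a sialyltransferase, was at 11.3, 23.8, 90.1 and 163 CPM. Mgll, the lipase of 2-arachidonoylglycerol, was at 10.6, 13.7, 44.8 and 73.5 CPM. Snord35b shares its position with another gene, so its value is uncertain, and Aim1 had no entry in the annotation used.

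Markers of other cell types differed between the pairs as well. The 3 tested pericyte markers, Rgs5, Cspg4 and Vtn, were higher on 523 and 524. Rgs5 was at 1.18, 12.4, 82.0 and 34.5 CPM, and the 10 markers summed to 24.7, 25.9, 141 and 86.9 CPM. The plates of a pair were unlike each other for Rgs5. Pdgfrb, the defining receptor, was at 0.785, 0.537, 2.47 and 0.596 CPM and overlapped, and Kcnj8 and Anpep had 0 reads on plate 522. Cells with a read of any pericyte marker made up 19.0%, 15.5%, 34.7% and 36.2% of the plates, but at least 3 such markers at 100 CPM were found in 1, 0, 3 and 2 cells. Without the cells that had a pericyte read, 651 of the 654 genes with a 1.5-fold gap in either direction separated the pairs the same way. These genes were chosen for their gap in all cells, so this is a description only. The transporter median without those cells was -0.37.

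Astrocyte markers summed to 1400, 1442, 1088 and 938 CPM, most of it Apoe, which endothelium also expresses. Aqp4 and Gfap, the defining markers, were below 4 CPM on every plate. At least 3 astrocyte markers at 100 CPM were found in 31, 11, 16 and 1 cells, or 10.3%, 3.79%, 5.61% and 0.321% of the plates. These shares overlapped between the pairs and differed widely within them. Erythroid markers summed to 30.1, 21.7, 5.69 and 5.10 CPM. Fibroblast markers summed to 54.7, 4.82, 46.9 and 9.56 CPM, so that they separated 521 and 523 from 522 and 524 and not the pairs. Without cells that held 3 or more markers of another type, all 654 genes kept their direction and stayed apart. Only 36, 12, 21 and 3 cells were left out on the 4 plates in order. So few cells could hardly close a gap for which the genes were chosen, and this is a description only. Xist was at 798, 623, 571 and 588 CPM, a gap of 1.06, and Ddx3y was at no more than 0.110 CPM on any plate.

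Cells were also split by whether they held at least 3 arterial and at least 3 venous markers at 100 CPM. The limits were loose, since 67.3% to 70.7% of cells on each plate passed for arterial markers. The venous limit was passed by 79.7%, 66.6%, 29.1% and 26.6% of cells, a share that moves with the venous genes themselves. Within the cells that passed only for arterial markers, 12 of the 15 genes named for 521 and 522 and all 15 named for 523 and 524 still separated the pairs. Within cells that passed only for venous markers the counts were 15 and 13, and within cells that passed for both they were 15 and 14. The named genes were picked for the largest gaps in these same cells, so such counts are descriptions and no separate support. The share of all tested genes that separated in these ranges is not given. The transporter median was -0.64, -0.57 and -0.35 in these 3 ranges, the tip median 0.53, 1.15 and 1.02, and the clock median 0.48, 0.34 and 0.47. Other lists moved. The venous median, 1.14 over all cells, was 0.14, 0.34 and 0.24 in these ranges, with 3, 5 and 6 of 12 members higher on 521 and 522. The adhesion median, 0.97 over all cells, was -0.14, 0.19 and 0.89. The arterial median was 1.16, 0.67 and 0.18, against -0.06 over all cells. The immediate early median was 0.35, -0.67 and -0.13, against -0.16. These ranges were formed from arterial and venous markers themselves, so the venous and arterial values in them are not independent of the split. The same holds for the adhesion values, since that list shares Vcam1, Icam1, Il1r1, Lcn2 and others with the venous markers. In the 167 cells that passed for neither (20, 24, 58 and 65 by plate), the counts were 12 and 14. Of all 9999 tested genes, 1724 were higher on 521 and 522 in these cells and 2168 on 523 and 524. In these cells 377 of the 654 genes with the gap still separated the pairs, and Osbpl5, the oxysterol-binding protein, had a log2 ratio of -0.17 and Cd74 one of 0.09. The venous median in them was -0.11 and the adhesion median -0.04, where cells with several venous markers had been removed by construction.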

How the data were processed

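Single brain endothelial cells were measured by Smart-seq2. The authors deposited a table of raw read counts, whole numbers, with 46517 genes as rows and 1187 cells as columns. The tools named are featureCounts, Subread 1.4.6-p5, TopHat2 2.1.1 and SAMtools 0.1.18, and the builds GRCm38 and mm10, per the submitters' processing notes. Use of strand and removal of duplicate reads are not stated there, so a gene and its antisense neighbour may share reads. Smart-seq2 has no molecular identifiers.

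Counts were summed per plate with Python 3.11.15, numpy 2.4.6 and pandas 2.3.3, and divided by the plate total (98732876 to 108978396 reads; 100779 to 584112 per cell). The smallest cell thus had enough reads for thinning to 100000 (seed 1), and 0 cells were lost. No cell filter or doublet caller was applied. No row lacked a gene name. Coordinates are from GENCODE M21 on GRCm38. Scripts were tested on simulated data.

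Genes averaging at least 10 CPM over the plates were compared. No test was run; edgeR 4.0.16 (R 4.3.3) gave TMM factors as an alternative scaling. Named genes are the 15 with the largest gap in each direction that also did not overlap when cells were weighted equally or when shares of cells with a read were compared; 3 predicted genes were skipped. List members that did not overlap were named by largest gap, and Pdgfb, Cldn5 and Xist always; some genes are not reported here. Members that overlapped were named after their values had been seen, to show the other side of a list. The plate pairs and the gene lists were chosen with earlier results of these data known. Limits given for values of 0 are the share that 3 cells with a read would make, and intervals are exact at 95%.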

Additional observations from a re-analysis of the deposited data

How the results depend on the processing

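All 654 genes with a gap of 1.5-fold kept their direction and did not overlap with the mean of each cell's CPM, without the highest 1% of cells and without cells of other types. The 654 were chosen for their gap in these same cells, and few cells were of other types, so that setting could hardly close it. TMM scaling, median-of-ratios scaling and totals without mitochondrial transcripts also moved plates too little to close such a gap. Leaving out a plate cannot make the pairs overlap. None of these settings bears on whether the genes stay apart. With shares of cells, 612 of the 654 kept their direction and did not overlap. Genes with the gap toward 521 and 522 numbered 633 without the highest 1% of cells. With shares, 6862 and 592 genes did not overlap and 624 and 65 had the gap. Without cells with arterial or venous markers, 1724 genes were higher on 521 and 522, and 872 had the gap toward 523 and 524. A filter at 1 CPM gave 726 and 499 genes with the gap. No filter gave 5873 and 6026 not overlapping, and 817 and 596 with the gap; a 2-fold gap gave 174 and 78. Without 1 plate, 3860 to 3984 and 3460 to 3536 genes did not overlap and 588 to 752 and 465 to 664 had the gap, since 1 plate against 2 separates more easily.

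List medians moved as follows. Adhesion was 1.11 without the highest cells, 0.83 as shares, 1.03 without cells with a pericyte read (an alternative chosen after seeing the data), 1.46 at 1 CPM and 0.56 unfiltered. Capillary was -0.071 and transporters -0.083 as shares, and transporters -0.37 without pericyte reads. Ribosome genes were at 0.049 as shares and 0.055 without cells with arterial or venous markers. MHC was 0.47 without pericyte reads, 0.74 at 1 CPM and 0.74 unfiltered, and venous 1.69 at 1 CPM. Without cells with arterial or venous markers, tip was 2.12, transporters -0.62, MHC 0.24 and clock 0.65. In that setting the sign changed for Osbpl5 (-0.17), Cldn5 (-0.042), venous (-0.11), junctions (-0.050), Notch (0.0039), TGF-beta/BMP (-0.035) and adhesion (-0.043). Apart from Cldn5, these values were smaller in size than their spread within a pair, so they are near 0 and give no direction. The venous markers, some of which the adhesion list shares, also formed that setting. As shares the median over all 9999 genes was 0.30, against 0.03. By that measure Wnt (0.12), Notch (0.051), interferon (0.13), immediate early (0.050) and shear (0.055) changed sign but stayed below the median of all genes. Notch was 0.0083 without pericyte reads, within its spread. Without 1 plate, tip ranged from 0.57 to 0.95, adhesion from 0.87 to 1.01, MHC from 0.31 to 0.53, capillary from -0.66 to -0.47, transporters from -0.51 to -0.37, clock from 0.32 to 0.61 and ribosome from 0.14 to 0.23. Interferon ranged from -0.15 to 0.027, changing sign without plate 521, and Notch from -0.21 to 0.0033, changing sign without plate 523. Both changed values lay within the spread. The causes were not tested.

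A list median counted as a direction only where it exceeded the spread of plate medians within a pair; this rule, and which lists to print, were set after the values had been seen. No paired analysis was possible because the columns carry no replicate number. With 2 plates a side, the spread within a pair is known poorly.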
